A study of Mus musculus with 14 samples.

Results

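Glycolysis was followed through 10 genes of its enzymes and regulators in the aortic intima of progeroid and control mice: Hk1, Hk2, Pfkfb3, Pfkp, Pfkl, Aldoa, Pgk1, Pkm, Ldha and Pdk1. They were taken from the table of 22430 genes by their symbols, 1 row each, and all 10 had enough counts to be tested. The inner layer of the thoracic aorta was lysed by passing a reagent through its lumen, and each of the 14 libraries came from a pool of 12 to 14 mice of 1 genotype. All mice lacked apolipoprotein E (Apoe-/-), which makes them prone to atherosclerosis. Mice with ubiquitous progerin (Apoe-/-LmnaG609G/G609G, 3 libraries) carried in every cell the Lmna change by which the Hutchinson-Gilford progeria protein progerin, a shortened lamin A, is made, and their controls had wild-type Lmna (Apoe-/-Lmna+/+, 4 libraries). Mice with VSMC progerin (Apoe-/-LmnaLCS/LCS SM22Cre, 3 libraries) carried a Cre recombinase under the SM22α promoter, by which progerin is given as specific to vascular smooth muscle cells (VSMC). Their lamin C-only controls were Apoe-/-LmnaLCS/LCS mice (4 libraries), which make lamin C and no lamin A, so both groups of this pair share that background. The sources used here do not give ages, sexes or the number of mice in a single pool. The spread behind each p-value is that of pools, not of mice.

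Glycolysis splits glucose into pyruvate in the cytosol and yields ATP without oxygen. Hexokinases trap glucose as its phosphate, phosphofructokinase commits it to the pathway, and PFKFB enzymes set the level of fructose 2,6-bisphosphate, the strongest activator of phosphofructokinase. Lactate dehydrogenase turns pyruvate into lactate, and pyruvate dehydrogenase kinases keep it out of the mitochondrion by inhibiting the pyruvate dehydrogenase complex. Endothelial cells are known to draw most of their ATP from glycolysis, PFKFB3 is known for its part in vessel sprouting, and several of these genes are textbook targets of hypoxia-inducible factors (HIF).

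Because HIF binds the core ACGTG or GCGTG, the bases before the start sites of 5 members that moved in different ways are shown from RefSeq (GRCm38.p6), 5′ to 3′ on the gene's strand, with each match on either strand in capitals. Where a gene has several start sites the window with the most matches was taken, and the 11 bases of the Pfkfb3 window that lie in an annotated exon were left off.
Hk2, chr6:82774455-82774704, minus strand: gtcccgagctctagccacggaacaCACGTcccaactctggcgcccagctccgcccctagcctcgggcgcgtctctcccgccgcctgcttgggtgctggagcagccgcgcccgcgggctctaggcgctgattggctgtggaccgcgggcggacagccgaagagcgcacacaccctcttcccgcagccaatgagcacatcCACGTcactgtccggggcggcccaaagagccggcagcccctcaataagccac
Pfkfb3, chr2:11502102-11502340, minus strand: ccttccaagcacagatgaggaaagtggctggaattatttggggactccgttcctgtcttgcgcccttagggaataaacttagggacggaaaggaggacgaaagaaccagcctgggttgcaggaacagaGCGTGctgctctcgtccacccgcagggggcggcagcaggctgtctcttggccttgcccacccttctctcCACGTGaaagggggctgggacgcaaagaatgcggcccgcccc
Pgk1, chrX:106186850-106187099, plus strand: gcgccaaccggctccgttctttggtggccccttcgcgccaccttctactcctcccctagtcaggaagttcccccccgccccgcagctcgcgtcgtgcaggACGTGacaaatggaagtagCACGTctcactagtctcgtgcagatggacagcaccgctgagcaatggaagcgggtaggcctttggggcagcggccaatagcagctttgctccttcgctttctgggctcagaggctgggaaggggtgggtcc
Ldha, chr7:46845554-46845803, plus strand: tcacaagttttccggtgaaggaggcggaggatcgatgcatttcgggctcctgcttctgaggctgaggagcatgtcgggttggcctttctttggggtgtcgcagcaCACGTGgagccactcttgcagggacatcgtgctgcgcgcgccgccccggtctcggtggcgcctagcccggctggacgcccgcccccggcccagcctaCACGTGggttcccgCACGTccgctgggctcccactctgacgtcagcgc
Pdk1, chr2:71872974-71873223, plus strand: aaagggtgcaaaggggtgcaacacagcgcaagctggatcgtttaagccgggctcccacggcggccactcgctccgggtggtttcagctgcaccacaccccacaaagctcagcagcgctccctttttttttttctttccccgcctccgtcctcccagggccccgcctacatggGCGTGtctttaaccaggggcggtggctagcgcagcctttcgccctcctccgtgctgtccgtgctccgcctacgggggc
The Ldha window held 5 matches, 4 of them from the 2 copies of CACGTG, where matches on opposite strands overlap. The Pfkfb3 window held 3, and those of Hk2, Pgk1 and Pdk1 held 2, 2 and 1. All 10 members matched the RefSeq table, with 17 windows of 250 bases, and 13 of these held a match, as did 38.6% of the 32851 windows of that length in the table. A match is a description of the sequence, and binding was not measured.

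Library totals lay between 27169784 and 35692385 estimated counts. Lmna gave 113 to 125 TMM-scaled CPM (counts per 1000000, with library sizes adjusted by edgeR's trimmed mean of M-values) in wild-type controls, 115 to 121 with ubiquitous progerin, 126 to 142 in lamin C-only controls and 207 to 256 in VSMC progerin, and Apoe gave 44.5 to 72.1 CPM over all libraries. Gene counts check neither allele and do not separate progerin from lamins A and C. Endothelial markers (9 genes) summed to 22680 to 24485 CPM in wild-type controls, 20423 to 21488 with ubiquitous progerin, 21717 to 23723 in lamin C-only controls and 21056 to 22043 in VSMC progerin, the highest of the marker sums in every library. Most of this sum was Pecam1 and Vwf, and its genes did not move together. In ubiquitous progerin 3 rose and 4 fell (Emcn by 1.17 up, Tek by 1.30 down), and in VSMC progerin 3 rose and 5 fell. The 8 macrophage markers summed to 63.9 to 130 CPM in wild-type controls and 756 to 1227 in ubiquitous progerin, and to 57.9 to 217 in lamin C-only controls and 589 to 703 in VSMC progerin. Adipocyte markers (5 genes) summed to 24 to 32.4 CPM in wild-type controls and 32.9 to 79.1 in ubiquitous progerin, and fibroblast markers (6 genes) to 414 to 450 and 342 to 391 CPM. Of the adipocyte markers only Retn passed there (log2 change 1.71), and Plin1 went the other way without passing (-0.90). The lower fibroblast sum came from Pi16 (log2 change -1.81), and the 5 fibroblast markers that did not pass had higher means. In the other pair adipocyte markers summed to 17.3 to 108 CPM in lamin C-only controls and 130 to 216 in VSMC progerin, and fibroblast markers to 370 to 617 and 1210 to 1421 CPM. Of the fibroblast markers 4 rose there and 2 were not called. Most of the higher sum was Pi16 (group means 230 and 698 CPM) and Col1a1 (17.5 and 414 CPM). The means of Dcn (164 and 133 CPM) and Pdgfra (6.30 and 6.19 CPM) were lower in VSMC progerin. The share of mitochondrially encoded transcripts was 3.53% to 5.42% in the controls, 7.29% to 8.22% in ubiquitous progerin and 11.5% to 12.1% in VSMC progerin, and with these genes removed 7 and 6 members passed in the progerin comparisons, as with them. VSMC progerin pool 3 had an erythroid marker sum of 8556 CPM, against 124 to 586 in the other libraries, and wild-type control pool 1 had counts for fewer genes (14328) than the other libraries (14763 to 15452). Smooth muscle markers (7 genes) summed to 491 to 829, 934 to 982, 397 to 560 and 316 to 382 CPM in wild-type controls, ubiquitous progerin, lamin C-only controls and VSMC progerin. The higher sum in ubiquitous progerin came from Tagln (log2 change 1.59 ± 0.21), whereas Acta2, Myh11 and Smtn fell there (by 1.2, 1.32 and 0.65) and Cnn1, Lmod1 and Myocd did not pass. In VSMC progerin Acta2, Myh11 and Lmod1 fell (by 1.00, 1.88 and 0.76) and none of the 7 rose. The part of these cells in the members' changes was not tested. In such bulk lysates, fewer cells of a type and less RNA per cell cannot be told apart.

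Progerin did not move the pathway as a block in either model. In ubiquitous progerin Hk2, Pfkfb3, Pfkp, Pgk1 and Pdk1 rose and Hk1 and Pfkl fell, while in VSMC progerin Hk2 and Ldha rose and Pfkfb3, Pfkp, Pfkl and Pdk1 fell. So 7 of 10 members passed in the first comparison, 5 higher and 2 lower, where 54.6% of the 14269 genes tested were called (26.3% higher and 28.3% lower). In the second 6 of 10 passed, 2 higher and 4 lower, beside 42.0% of all genes (19.0% higher and 23.0% lower). The members' median log2 change was 0.16 in ubiquitous progerin and -0.07 in VSMC progerin, beside medians over all genes of -0.01 and -0.03, and their median absolute change was 0.35 and 0.29, beside 0.39 and 0.28. Calls were made by edgeR's quasi-likelihood test at an adjusted p under 0.05, and the counts of members called were 7 when wild-type pool 1 was left out and 6 without VSMC progerin pool 3. The library ranges of the groups did not overlap for 7 members in each comparison, beside 56.4% and 45.5% of all genes. These are not the same members as those called. In ubiquitous progerin they include Aldoa, which was not called, and leave out Pdk1, and in VSMC progerin they include Pkm, which was not called.

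**Figure D1:**
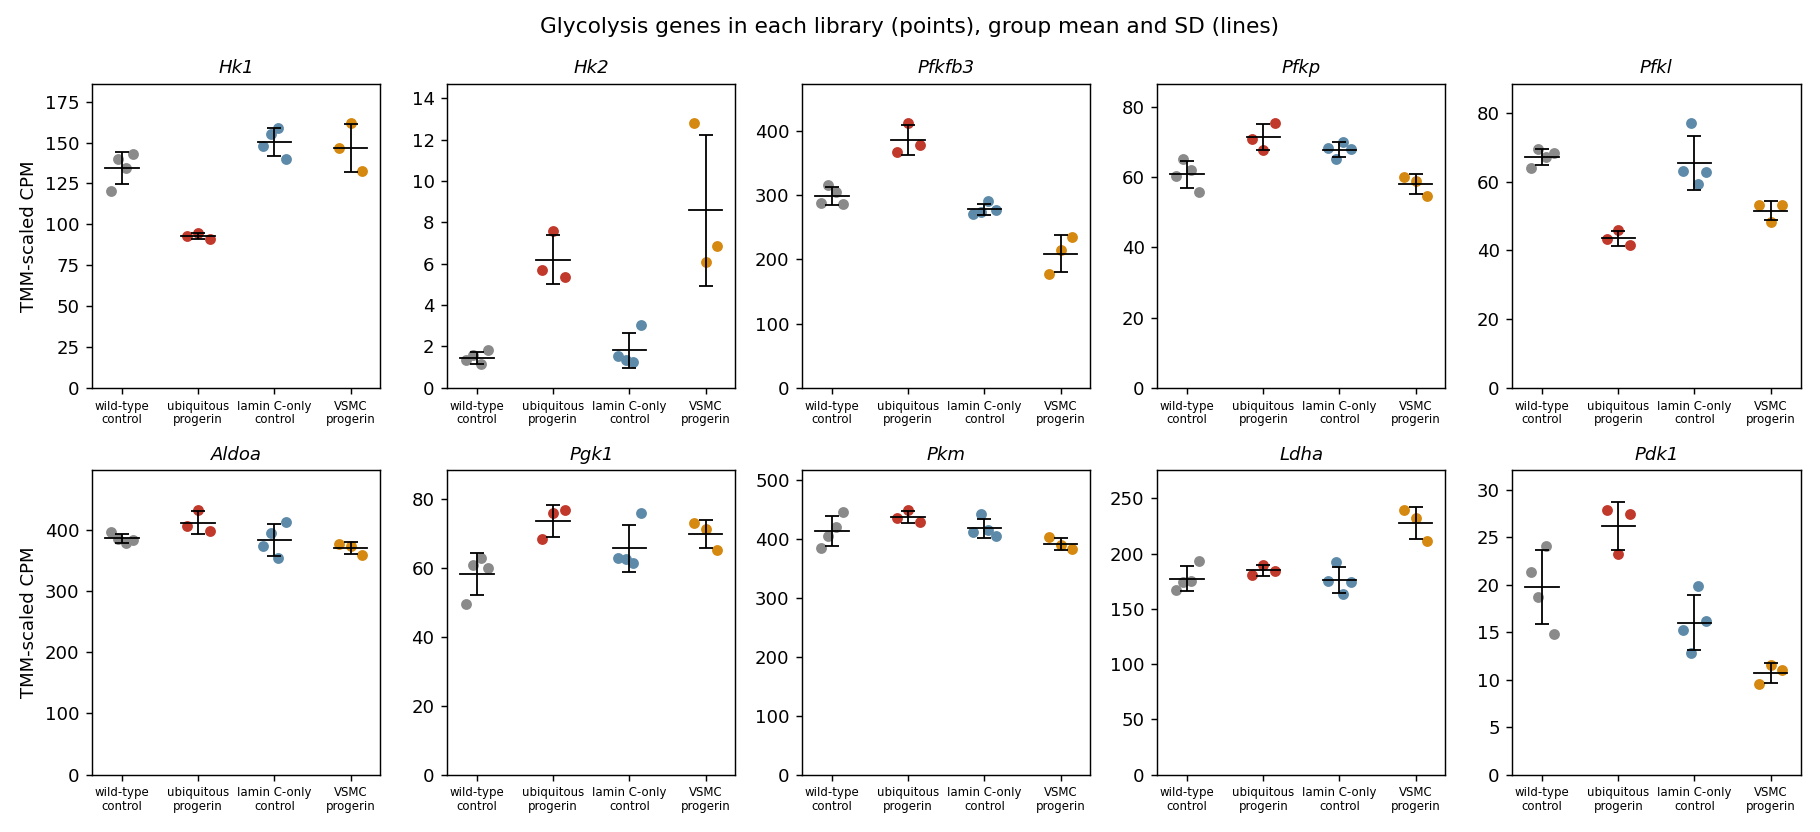
Level of each glycolysis gene in TMM-scaled CPM (vertical axes, from 0) in the 14 libraries (points) by group, with group means and SD (black lines). Hk2 lies at 1.14 to 3.03 CPM in the 8 control libraries and at 5.34 to 12.8 CPM in the 6 progerin libraries, and Pfkfb3 is highest in ubiquitous progerin and lowest in VSMC progerin.

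Hk2 had the largest change of the members in both models. It encodes an inducible hexokinase that binds mitochondria (ENSMUSG00000000628, GRCm38 chromosome 6, 82725025 to 82774454, from the GENCODE M21 annotation, as are the other positions). Pools 1 to 4 of wild-type controls gave 1.35, 1.57, 1.14 and 1.81 CPM for Hk2, and pools 1 to 3 of ubiquitous progerin gave 5.69, 7.56 and 5.34 CPM. The lowest progerin pool was thus well above the highest control pool, with a log2 change of 2.08 ± 0.31 (SE), or 4.21-fold (adjusted p = 1.2e-05). In lamin C-only controls the Hk2 level was 1.56, 1.37, 1.27 and 3.03 CPM, and in VSMC progerin 12.8, 6.09 and 6.84 CPM. These groups did not overlap either, and the log2 change was 2.24 ± 0.31 (adjusted p = 7.0e-06). The highest control, lamin C-only pool 4, also had the highest adipocyte sum of its group (108 CPM) and the highest fibroblast sum (617 CPM, against 370 to 398), and VSMC progerin pool 1, the highest of all for Hk2, had the highest adipocyte sum (216 CPM). Ubiquitous progerin pool 2, the highest of its group for Hk2, had its group's highest adipocyte sum (79.1 CPM) and lowest macrophage sum (756 CPM). The other VSMC progerin pools followed this order, with adipocyte sums of 130 CPM in pool 2 and 168 CPM in pool 3. In the other groups some pools did not. Ubiquitous progerin pool 1, with its group's lowest adipocyte sum (32.9 CPM), had more Hk2 than pool 3, whose adipocyte sum was 52.6 CPM. Among wild-type controls pool 3 had the highest adipocyte sum (32.4 CPM) and the lowest Hk2 level (1.14 CPM). Hk2 rose in the same groups as the macrophage markers, and the part of macrophages and adipocytes in its change was not tested. The difference between the Hk2 effects was -0.17 ± 0.44 (adjusted p = 0.79), with an approximate 95% interval of -1.03 to 0.70.

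Hk1, the widespread hexokinase (ENSMUSG00000037012, chromosome 10, 62268855 to 62379908), fell in ubiquitous progerin. Its level was 121, 140, 134 and 143 CPM in wild-type control pools 1 to 4 and 92.9, 94.8 and 91.2 CPM in the progerin pools. Every progerin pool was below every control, and the log2 change was -0.53 ± 0.07 (adjusted p = 3.2e-06). In lamin C-only controls Hk1 lay at 148, 155, 159 and 140 CPM, and in VSMC progerin at 147, 162 and 132 CPM. The latter groups overlapped (log2 change -0.03 ± 0.07, adjusted p = 0.73, approximate 95% interval -0.17 to 0.10), and the effects differed between the models by -0.50 ± 0.10 (adjusted p = 4.3e-04).

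Among the phosphofructokinase subunits Pfkl fell in both models and Pfkp went in opposite directions. Pfkl, the liver-type subunit (ENSMUSG00000020277, chromosome 10, 77986947 to 78010083), gave 63.8, 69.4, 67.1 and 68.2 CPM in wild-type controls and 43.3, 45.8 and 41.5 CPM in ubiquitous progerin. That is a log2 change of -0.62 ± 0.08 (adjusted p = 1.4e-06), with no overlap. In lamin C-only controls Pfkl gave 63.0, 77.0, 59.3 and 62.7 CPM, and in VSMC progerin 53.2, 48.4 and 53.1 CPM, again without overlap (log2 change -0.35 ± 0.08, adjusted p = 0.0014). The difference between the Pfkl effects was -0.28 ± 0.11 (adjusted p = 0.046). It missed the threshold with no filter on low counts (adjusted p = 0.060) and without lamin C-only pool 1, 3 or 4, VSMC progerin pool 1 or 3, wild-type pool 2, 3 or 4, or ubiquitous progerin pool 1 or 3 (adjusted p = 0.058 to 0.096, log2 difference -0.30 to -0.23).

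Pfkp, the platelet-type subunit (ENSMUSG00000021196, chromosome 13, 6579768 to 6648777), rose from 60.2, 65.1, 62.1 and 55.7 CPM in wild-type controls to 70.9, 67.8 and 75.3 CPM in ubiquitous progerin. The change was small, 0.23 ± 0.06 on the log2 scale (adjusted p = 0.0047), though the groups did not overlap. In the other pair Pfkp fell from 68.4, 65.1, 69.9 and 68.1 CPM to 60.1, 59.0 and 54.8 CPM (log2 change -0.23 ± 0.06, adjusted p = 0.0078). The difference between the effects was 0.46 ± 0.09 (adjusted p = 3.7e-04). Exons of Pfkp overlap over 748 bases with Pitrm1 on the opposite strand. Libraries were strand-specific, but the strand setting of the counting is not given in the sources used here. Pitrm1 had log2 changes of 0.10 ± 0.07 (adjusted p = 0.24) and -0.46 ± 0.07 (adjusted p = 4.2e-05) in the same comparisons, and its part in the Pfkp values was not tested.

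Pfkfb3, the PFKFB enzyme that favours synthesis of the phosphofructokinase activator (ENSMUSG00000026773, chromosome 2, 11471433 to 11554077), also moved in opposite directions. In wild-type controls it lay at 288, 316, 304 and 287 CPM and in ubiquitous progerin at 368, 412 and 377 CPM, a log2 change of 0.37 ± 0.07 (adjusted p = 2.9e-04). In lamin C-only controls it lay at 271, 273, 290 and 277 CPM and in VSMC progerin at 177, 215 and 234 CPM, a log2 change of -0.41 ± 0.08 (adjusted p = 1.8e-04). No progerin pool reached its control range from either side, and the effects differed by 0.78 ± 0.11 (adjusted p = 5.4e-06). By group mean the order of Pfkfb3 was ubiquitous progerin, wild-type controls, lamin C-only controls and VSMC progerin, and the neighbouring controls overlapped.

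**Figure D2:**
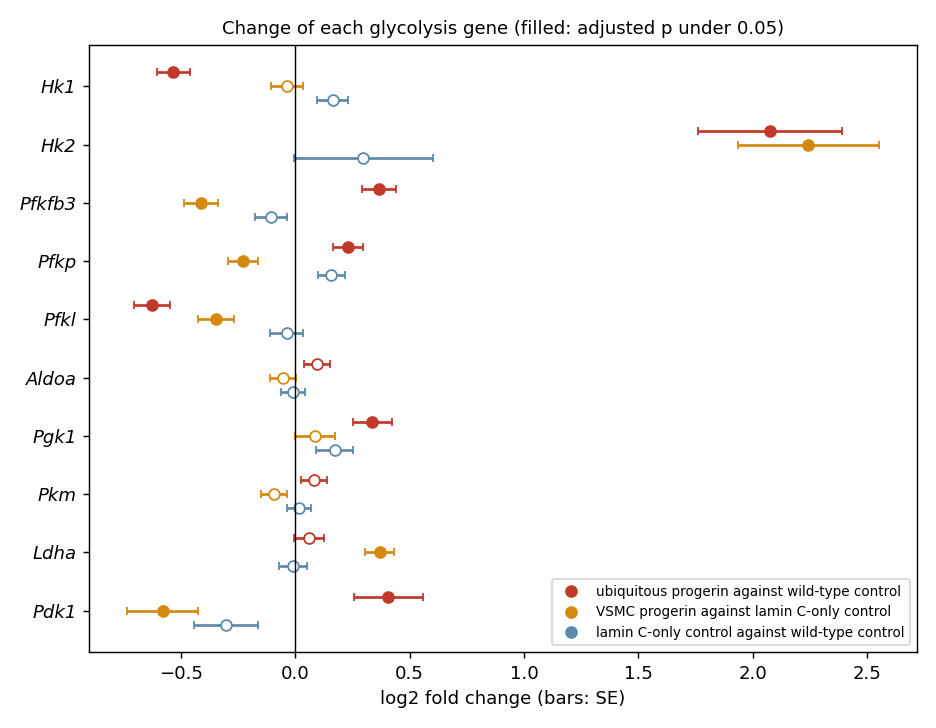
Log2 fold change (horizontal axis, bars SE) of each of the 10 genes in the 3 comparisons of the study, filled where the adjusted p was under 0.05 in edgeR's quasi-likelihood test. Pfkfb3, Pfkp and Pdk1 lie on opposite sides of 0 in the progerin comparisons, and no gene is filled in the comparison of the controls.

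Aldoa and Pkm passed in neither comparison, though library ranges did not overlap for Aldoa in ubiquitous progerin and for Pkm in VSMC progerin. Aldoa, which encodes an aldolase (ENSMUSG00000030695, chromosome 7, 126795234 to 126800751), had group means of 386 ± 7.59 CPM (SD, n = 4) in wild-type controls, 412 ± 18.2 (n = 3) with ubiquitous progerin, 383 ± 25.5 (n = 4) in lamin C-only controls and 370 ± 9.89 (n = 3) in VSMC progerin. Its log2 changes of 0.09 ± 0.06 (adjusted p = 0.175) and -0.05 ± 0.06 (adjusted p = 0.50) did not pass, with approximate 95% intervals of -0.02 to 0.21 and -0.16 to 0.06. Pkm, pyruvate kinase of most tissues (ENSMUSG00000032294, chromosome 9, 59656368 to 59679375), had means of 413 ± 25.6, 437 ± 10.4, 417 ± 16.5 and 391 ± 10.2 CPM in the same order. Its log2 changes were 0.08 ± 0.06 (adjusted p = 0.23) and -0.09 ± 0.06 (adjusted p = 0.20), with approximate 95% intervals of -0.03 to 0.19 and -0.20 to 0.02. Gene counts do not separate the M1 and M2 splice forms of Pkm. The difference between the Pkm effects, 0.18 ± 0.08 (adjusted p = 0.081), passed with DESeq2 (0.17, adjusted p = 0.048) and when wild-type pool 4 was left out (0.21, adjusted p = 0.033).

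Pgk1, phosphoglycerate kinase (ENSMUSG00000062070, chromosome X, 106187100 to 106203699), gave 49.4, 60.9, 62.7 and 59.9 CPM in wild-type controls and rose to 68.2, 75.8 and 76.7 CPM in ubiquitous progerin (log2 change 0.34 ± 0.09, adjusted p = 0.0025). In lamin C-only controls it gave 62.8, 62.4, 61.4 and 75.9 CPM and in VSMC progerin 72.9, 71.1 and 65.1 CPM, groups that overlapped (log2 change 0.09 ± 0.09, adjusted p = 0.45). The difference between these effects, 0.25 ± 0.12, did not pass (adjusted p = 0.10), so Pgk1 is not shown to behave differently in the models. Its values are uncertain because 4 other annotated genes, among them Pgk1-rs7 and Gm5537 at 100% identity, hold near-identical copies of its transcript. Ldha has 4 such copies and Pkm 2, none of them at full identity. None of the copies of Pgk1, Ldha and Pkm is a row of the count table. The Pkm copy Gm49759 overlaps exons of Pkm over 767 bases on the same strand, and its part in the Pkm values was not tested.

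Ldha, the lactate dehydrogenase subunit that favours lactate (ENSMUSG00000063229, chromosome 7, 46841475 to 46855627), rose in VSMC progerin. Pools gave 176, 192, 163 and 175 CPM in lamin C-only controls and 239, 232 and 212 CPM in VSMC progerin. All progerin pools were above all controls, and the log2 change was 0.37 ± 0.07 (adjusted p = 1.2e-04). Wild-type control gave 167, 174, 175 and 193 CPM and ubiquitous progerin 180, 190 and 184 CPM, which overlapped (log2 change 0.06 ± 0.07, adjusted p = 0.46, approximate 95% interval -0.07 to 0.19). The effects differed by -0.31 ± 0.09 (adjusted p = 0.010).

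Pdk1, a kinase that inhibits the pyruvate dehydrogenase complex (ENSMUSG00000006494, chromosome 2, 71873224 to 71903858), was the member least firmly placed. Wild-type control gave 21.4, 18.7, 24.1 and 14.9 CPM and ubiquitous progerin 27.9, 23.2 and 27.4 CPM, so the groups overlapped, at a log2 change of 0.41 ± 0.15 (adjusted p = 0.027). This call was lost without wild-type pool 2 (log2 change 0.38, adjusted p = 0.062) or pool 4 (0.29, adjusted p = 0.090), and without ubiquitous progerin pool 1 (0.36, adjusted p = 0.097) or pool 3 (0.38, adjusted p = 0.088). Lamin C-only control gave 15.2, 12.8, 19.9 and 16.1 CPM for Pdk1 and VSMC progerin 9.59, 11.6 and 11 CPM, with no overlap (log2 change -0.58 ± 0.16, adjusted p = 0.0059). The difference between the effects was 0.99 ± 0.22 (adjusted p = 0.0010).

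Over both progerin comparisons, 5 members passed in each of them, beside 27.2% of all genes. They were 1 with higher levels in both (Hk2), 1 with lower levels in both (Pfkl) and 3 in opposite directions (Pfkfb3, Pfkp and Pdk1). Of all genes tested, 7.89% were called higher in both, 8.63% lower in both and 10.6% in opposite directions. The comparisons share no library. The test of the difference called 6 of the 10 members (Hk1, Pfkfb3, Pfkp, Pfkl, Ldha and Pdk1), 3 in each direction, beside 44.2% of all genes (22.4% higher and 21.8% lower). That count was 5 with no filter on low counts and without lamin C-only pool 1, 3 or 4, VSMC progerin pool 1 or 3, wild-type pool 2 or 3, or ubiquitous progerin pool 1 or 3, and 7 with DESeq2. Lamin C-only control was compared with wild-type controls for the effect of the lamin background alone. By edgeR none of the 10 members passed (0 of 10, beside 0.175% of all genes, 0.0911% higher and 0.0841% lower), and DESeq2 and limma-voom also called 0. An unadjusted edgeR p under 0.05 was seen for 4 members (Hk1, Pfkp, Pgk1 and Pdk1). The share of all genes at that level was not counted, so no result about the members is drawn from it. The library ranges overlapped for all 10, while 4.97% of all genes showed no overlap. The largest of these log2 differences in size was -0.30 ± 0.14 for Pdk1 (adjusted p = 0.66).

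Levels per kilobase of exon (CPM divided by the merged length of coding transcripts' exons) allow the genes to be set beside each other. In wild-type controls the order of the members was Aldoa at 212, Pkm at 159, Ldha at 93.6, Pfkfb3 at 54.1, Pgk1 at 31.9 and Hk1 at 27.7 CPM per kilobase, followed by Pfkl, Pfkp, Pdk1 and Hk2. On this scale Hk1 made up 97.2% ± 1.1 (SD, n = 4) of hexokinase transcripts (Hk1, Hk2 and Hk3) in wild-type controls and 85.2% ± 1.0 (n = 3) in ubiquitous progerin, and 97.2% ± 0.6 (n = 4) in lamin C-only controls and 87.6% ± 4.2 (n = 3) in VSMC progerin. Hk2 took 0.914% ± 0.143, 4.91% ± 0.91, 1.03% ± 0.53 and 4.39% ± 1.69 in the same order, and Hk3 took more, at 1.84% ± 1.03, 9.87% ± 1.94, 1.78% ± 0.74 and 7.98% ± 2.55, while Hk1 was the main form in all 4 groups. The phosphofructokinase subunits were near even in wild-type controls, where Pfkl held 35.1% ± 1.9, Pfkm 37.4% ± 2.0 and Pfkp 27.5% ± 1.1. In ubiquitous progerin Pfkp held 37.4% ± 1.1 and Pfkl 26.3% ± 2.0, and their ranges did not overlap those of the control. Pfkfb3 made up 86.4% ± 0.7, 88.7% ± 1.8, 85.6% ± 0.8 and 78.7% ± 5.0 of the PFKFB transcripts in the order of groups above. Pdk1 was a minor kinase of its family, at 10.1% ± 1.45, 8.11% ± 0.995, 7.84% ± 1.71 and 5.25% ± 1.43, behind Pdk2 and Pdk4 in all 4 groups and behind Pdk3, at 10.3% ± 3.3, in VSMC progerin. These shares were not tested.

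**Figure D3:**
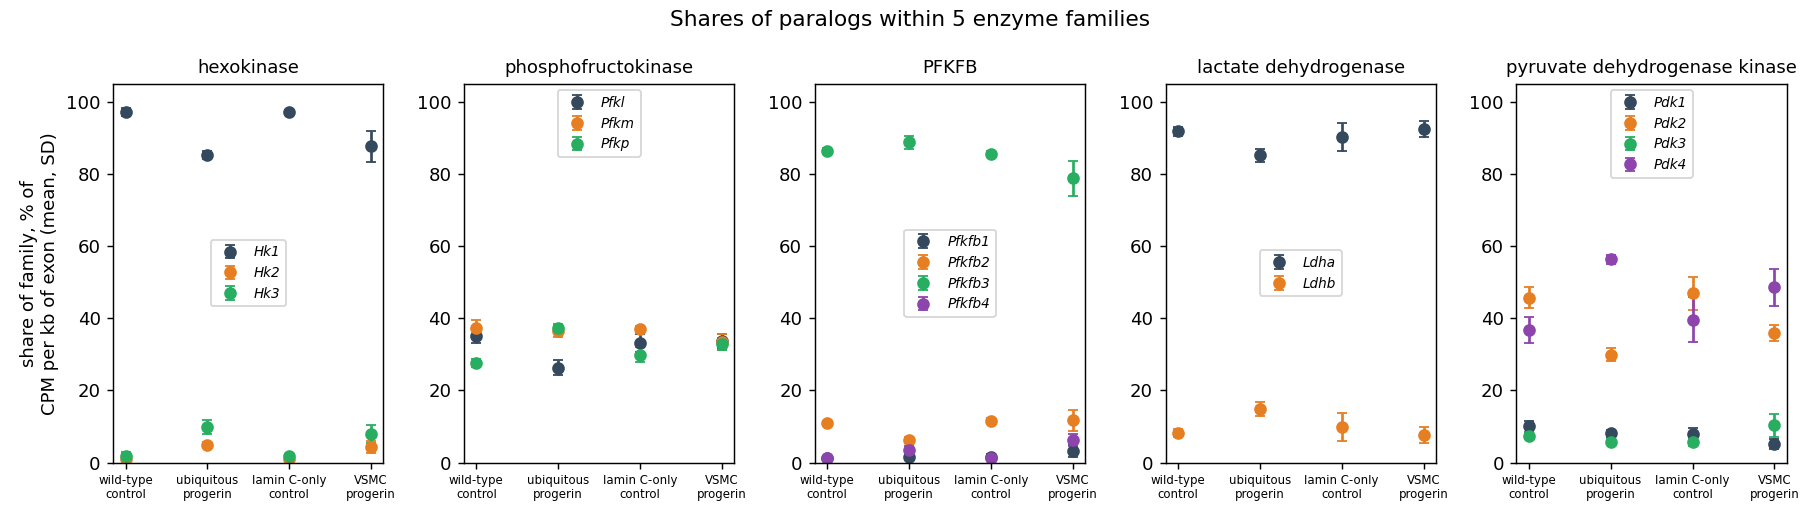
Share of each paralog within 5 enzyme families (vertical axis, percent of the family's CPM per kilobase of exon) in each group, as mean (points) and SD (bars) of 3 or 4 libraries. Hk1 falls from 97.2% to 85.2% in ubiquitous progerin and to 87.6% in VSMC progerin from 97.2% in its control, and Pdk4 is the largest kinase share in both progerin groups.

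Other enzymes of the pathway also moved in both directions. Of 20 other glycolytic genes 14 could be tested, and 6 rose and 4 fell in ubiquitous progerin, while 5 rose and 3 fell in VSMC progerin. Of all genes 54.6% and 42.0% were called in these comparisons. The median log2 changes of the list were 0.32 and 0.12, beside -0.01 and -0.03 over all genes. Hk3, a hexokinase of myeloid cells, rose in both, from 1.73 ± 0.85 to 7.44 ± 1.43 CPM and from 1.93 ± 0.88 to 9.28 ± 3.30 CPM (log2 changes 2.11 ± 0.37 and 2.26 ± 0.37). These are the groups in which the macrophage sum is higher, and the part of macrophages was not tested. Gpi1, glucose phosphate isomerase, rose by 0.23 ± 0.05 in ubiquitous progerin and fell by 0.42 in VSMC progerin. Gapdh, often used as a reference gene, rose by 0.41 ± 0.06 in ubiquitous progerin (adjusted p = 7.2e-06) and had a log2 change of 0.03 ± 0.06 in VSMC progerin (adjusted p = 0.71).

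The enolase Eno1 fell by 0.27 and rose by 0.25 ± 0.06 in the same order, Eno3, its muscle form, rose by 0.57 ± 0.15 and fell by 0.62, and Eno2, its neuronal form, rose by 1.61 ± 0.35 and 1.02 ± 0.35 from about 1 CPM. Pfkm, the muscle-type phosphofructokinase subunit, fell by 0.25 and 0.51. Ldhb, the lactate dehydrogenase subunit of oxidative tissues, rose by 1.04 ± 0.29 in ubiquitous progerin (adjusted p = 0.0084) and is named here after its values were seen. Of 4 further regulators of fructose 2,6-bisphosphate, 1 rose and 2 fell in ubiquitous progerin and 1 rose in VSMC progerin. The shares of all genes called were 54.6% and 42.0%. Pfkfb4 rose in both (1.71 ± 0.23 and 1.96 ± 0.23), from 2.86 ± 0.55 to 9.31 ± 2.99 CPM and from 2.61 ± 0.33 to 10.2 ± 2.2 CPM, and Pfkfb2 and Tigar, a phosphatase that opposes PFKFB3, fell by 0.43 and 0.47 in ubiquitous progerin.

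Of 7 transport genes 3 rose and 1 fell in ubiquitous progerin, and 2 rose and 1 fell in VSMC progerin. Beside them 54.6% and 42.0% of all genes were called. Slc2a1, the main glucose transporter of endothelium, went from 29.4, 29.0, 25.7 and 30.4 CPM in wild-type controls to 67.3, 79.5 and 81.5 CPM in ubiquitous progerin, a log2 change of 1.41 ± 0.08 (adjusted p = 3.8e-11). In VSMC progerin it fell by 0.36 (adjusted p = 0.0019), and the effects differed by 1.77 ± 0.12 (adjusted p = 5.6e-10). Slc2a3, another glucose transporter, rose by 2.11 ± 0.48 in ubiquitous progerin from 0.669 ± 0.389 CPM, and the effects differed by 1.79 ± 0.68 (adjusted p = 0.038). Slc2a4, the insulin-regulated glucose transporter, rose in both models, by 1.51 ± 0.45 (adjusted p = 0.0074) and 1.36 ± 0.43 (adjusted p = 0.016), from 1.07 ± 0.29 to 3.05 ± 1.37 CPM and from 1.75 ± 1.30 to 4.48 ± 1.38 CPM, where the latter groups overlapped. Slc16a1, a lactate transporter, rose by 1.58 ± 0.38 in VSMC progerin. Bsg, the chaperone of lactate transporters, fell by 0.57 in ubiquitous progerin (adjusted p = 8.5e-09).

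At the exit of the pathway, 5 of 12 genes of the pyruvate dehydrogenase complex, its regulators and pyruvate import rose and 1 fell in ubiquitous progerin, and 1 rose and 3 fell in VSMC progerin. The background for this list was 54.6% and 42.0% of all genes called, as it was for the pentose phosphate and gluconeogenesis lists below. Pdk4, a kinase of the complex induced by fasting, went from 49.4, 57.7, 49.3 and 37.4 CPM in wild-type controls to 122, 127 and 119 CPM in ubiquitous progerin (log2 change 1.34 ± 0.27, adjusted p = 0.0015). In VSMC progerin its log2 change was 0.30 ± 0.27 (adjusted p = 0.41). The subunits Pdhb and Dld rose by 0.37 ± 0.06 and 0.41 ± 0.07 in ubiquitous progerin. Pdp2, a phosphatase that activates the complex, rose by 0.97 ± 0.18 there, and Pdp1, the other such phosphatase, fell in both models (by 0.49 and by 0.97). In VSMC progerin Pdk3 rose by 0.88 ± 0.17 and Pdk2 fell by 0.35. The pentose phosphate pathway, a side branch that makes NADPH, had 4 of 7 genes higher in each model, with 2 and 1 lower, and its enzymes Pgd and Pgls rose in both (Pgd by 0.52 ± 0.07 and 0.46 ± 0.07, Pgls by 0.47 ± 0.09 and 0.49 ± 0.09). Of 7 genes of gluconeogenesis 4 were tested, with 1 higher and 1 lower in ubiquitous progerin and 2 higher and 1 lower in VSMC progerin.

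The HIF subunits moved unevenly too. Of 12 regulators of the HIF and MYC systems 4 rose and 5 fell in ubiquitous progerin, and 1 rose and 7 fell in VSMC progerin. Beside them 54.6% and 42.0% of all genes were called. Hif1a fell from 96.9 ± 3.7 to 66.1 ± 3.6 CPM in ubiquitous progerin and rose from 92.8 ± 2.5 to 129 ± 11 CPM in VSMC progerin (log2 changes -0.55 ± 0.06 and 0.48 ± 0.06). Of the members called, Hk1 and Pfkl moved with Hif1a in ubiquitous progerin, and Hk2 and Ldha in VSMC progerin. The others called moved opposite to it, among them Pfkfb3, Pfkp and Pdk1 in both models. Arnt, another gene of this list, rose by 0.19 in ubiquitous progerin and fell from 98.1 to 80.8 CPM in VSMC progerin. These are transcript levels, and HIF protein and activity were not measured. The part of HIF in the members' changes was not tested. Epas1, which encodes HIF-2α and is abundant in endothelium, fell in both, from 3144 ± 198 to 2044 ± 19 CPM and from 3131 ± 111 to 2362 ± 190 CPM. Hif3a, a HIF subunit with inhibitory forms, rose by 1.68 ± 0.22 in ubiquitous progerin and fell by 1.02 in VSMC progerin. Myc fell by 0.78 and 0.56, and Mxi1, a MYC antagonist, fell by 0.90 in VSMC progerin.

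Among 13 other hypoxia-inducible genes, 6 rose and 4 fell in ubiquitous progerin, and 5 rose and 2 fell in VSMC progerin. Over all genes 54.6% and 42.0% were called. The list had median log2 changes of 0.81 and 0.30, beside -0.01 and -0.03 over all genes. The smallest p in ubiquitous progerin was that of Ero1l, an oxidase of protein folding, which fell by 0.67 (adjusted p = 6.6e-08) and had a log2 change of -0.13 ± 0.07 in VSMC progerin (adjusted p = 0.13). P4ha1, a collagen prolyl hydroxylase subunit, fell in both (by 0.69 and 0.26). Bnip3, a mitophagy receptor, rose by 1.91 ± 0.19 and Ddit4, an inhibitor of mTORC1, by 2.29 ± 0.22 in ubiquitous progerin. Neither passed in VSMC progerin (-0.12 ± 0.19 and 0.40 ± 0.22), and Kdm3a, a histone demethylase, rose by 0.55 ± 0.06 and fell by 0.50.

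**Figure D4:**
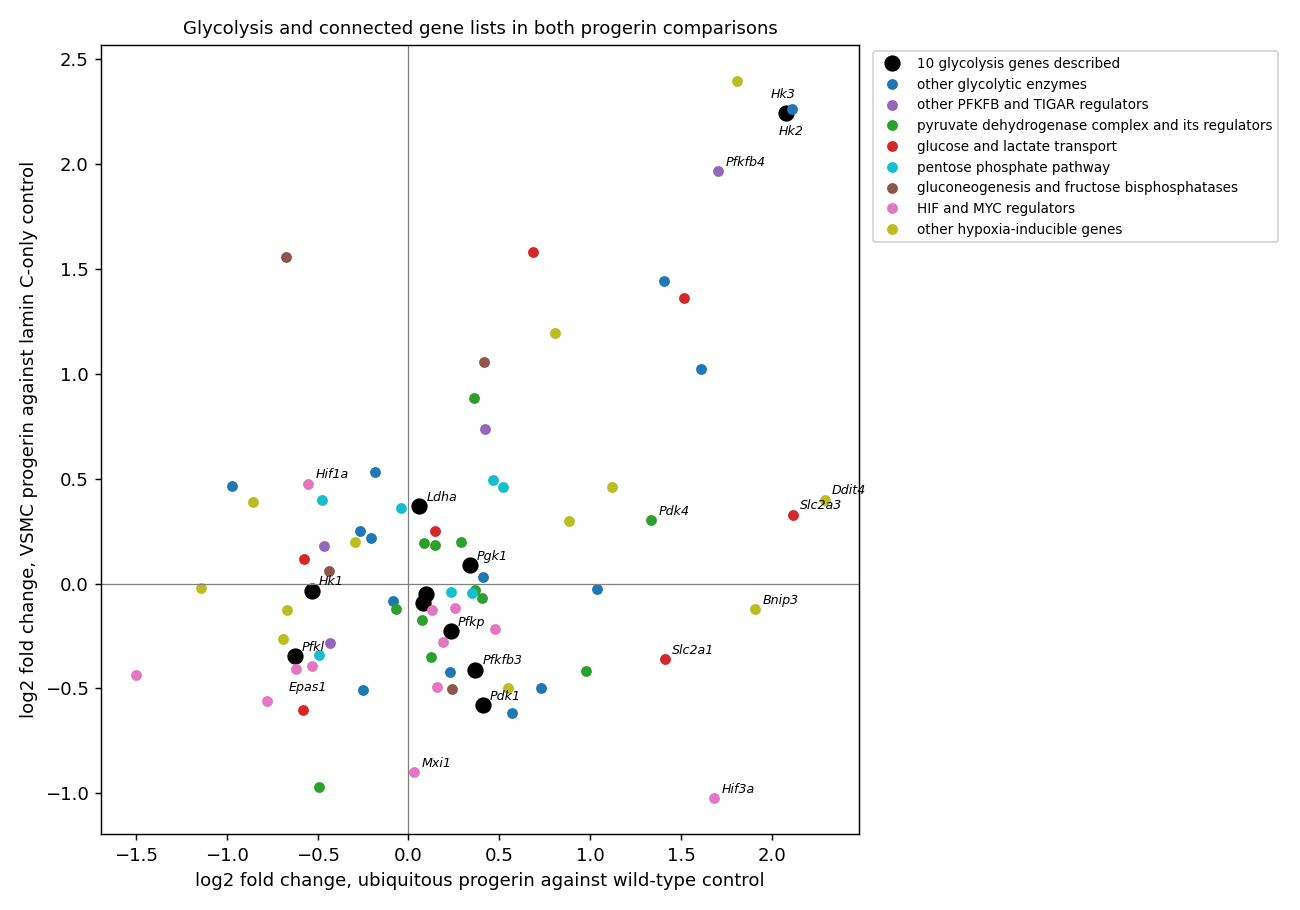
Log2 fold change in ubiquitous progerin (horizontal axis) against that in VSMC progerin (vertical axis) for the tested genes of the 9 lists (points, coloured by list), with the 10 glycolysis genes in black. Hk2, Hk3 and Pfkfb4 lie high in both comparisons, while Slc2a1, Bnip3 and Ddit4 are high in ubiquitous progerin only, where the test of the difference passed for each.

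For the 3 members whose group means differed most, the genes of most similar pattern were sought by the root mean square difference of mean-centred log2 CPM over the 14 libraries. Nearest to Hk2 were Lpl, lipoprotein lipase (0.29), Plbd1 (0.32) and Arhgap11a (0.33). Nearest to Pdk1 were Abhd18 (0.15), Peg3 (0.18) and Enc1 (0.18), and nearest to Pfkfb3 were Pink1, a mitochondrial quality kinase (0.08), Chd2 (0.08) and Dcaf11 (0.08). These distances describe likeness in these libraries alone.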

How the data were processed

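RNA from aortic intima was polyA-selected and made into strand-specific libraries. The authors deposited RSEM estimated counts for each gene, and log2 values normalised by limma voom. STAR 2.7.10b and RSEM 1.2.28, with Trim Galore 0.6.10, cutadapt 4.1, limma and the build GRCm38, are named in the submitters' processing notes. Neither an annotation nor a strand setting is given there. Counts were rounded to whole numbers, filtered with filterByExpr (minimum count 10, total 15, share 0.7), which left 14269 genes, scaled by TMM and passed to the robust quasi-likelihood test of edgeR 4.0.16 (R 4.3.3) in 1 model of all 14 libraries. P-values were adjusted by Benjamini-Hochberg over all genes tested. Alternatives used limma 3.58.1 and DESeq2 1.42.0, and the authors' deposited log2 values. The SE was taken as the size of the log2 change over the root of its F statistic, and a prior count of 2 entered log2 CPM. Analysis steps were tested on simulated data.

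Members and gene lists were chosen with earlier results of these data known. All members are named, with up to 5 called genes per list and comparison by smallest p, and fewer are named here. Positions come from GENCODE M21, which holds 22311 of the 22430 gene identifiers. Near-identical copies were transcripts of other genes with at least 95% identity over at least 200 bases. No replicates held identical values.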

Additional observations from a re-analysis of the deposited data

Results flagged for a closer look

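The largest gap to the other libraries of a control group set apart 7 values among 90 groups of 4 libraries examined, where chance gives about 1 in 20. Lamin C-only pool 4 was high for Hk2 (3.03 CPM) and Pgk1 (75.9 CPM) and low for Epas1 (2965 CPM). Lamin C-only pool 1 was high for Pdp2 (7.71 CPM), lamin C-only pool 3 was low for Myc (25.3 CPM), lamin C-only pool 2 was high for P4ha1 (45.9 CPM), and wild-type pool 3 was high for Slc16a1 (1.2 CPM).

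The effect of progerin differed between the models, by the test of the difference in edgeR with an adjusted p under 0.05, for 29 of the 45 genes examined, beside 44.2% of all genes tested. Most of these 45 are named because they had small p-values, in this test among others, so the count is not evidence about the pathway. Values are the log2 change in ubiquitous progerin minus that in VSMC progerin. Among the members it was -0.50 for Hk1, 0.78 for Pfkfb3, 0.46 for Pfkp, -0.28 for Pfkl, -0.31 for Ldha and 0.99 for Pdk1. Other glycolytic genes and regulators gave 0.65 for Gpi1, 0.38 for Gapdh, -0.51 for Eno1, 1.18 for Eno3 and -0.64 for Tigar. Genes around pyruvate dehydrogenase gave 0.40 for Pdhb, 0.48 for Dld, 0.47 for Pdk2, 1.03 for Pdk4, 0.48 for Pdp1 and 1.39 for Pdp2. Transport genes gave 1.77 for Slc2a1, 1.79 for Slc2a3 and -0.69 for Bsg. The HIF and MYC systems and hypoxia-inducible genes gave -1.03 for Hif1a, -0.21 for Epas1, 2.71 for Hif3a, 0.93 for Mxi1, 2.03 for Bnip3, 1.89 for Ddit4, 1.04 for Kdm3a, -0.54 for Ero1l and -0.42 for P4ha1.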

How the results depend on the processing

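Of 710 member values under the alternatives (scaling, filters, DESeq2, limma-voom, the deposited log2 values, fewer groups, a block and leaving out each pool), 693 kept their side of the threshold, with 11 changes of sign, all of values that passed in neither setting. The other 17 were calls lost for Pdk1 in ubiquitous progerin (4) and for the Pfkl difference (11), and calls gained for the Pkm difference (2). No called value changed sign. The number of members called stayed at 6 to 7 in ubiquitous progerin, 6 in VSMC progerin, 0 between the controls and 5 to 7 for the difference. Genes called between the controls, 25 of all tested, were 40 with no filter, 100 with DESeq2 and 16 with only these groups, and 8 to 45 when a pool was left out. The cause was not tested. Pool numbers are not stated to pair the libraries. Correlations between same-numbered pools were -0.046 to 0.023, which cannot show whether those pools were collected or prepared together. With the pool number as a replicate block, the members called were 7, 6, 0 and 6, as without it. With the longest transcript as gene length, chosen after seeing the data, the Hk1 share in ubiquitous progerin was 86.3%, against 85.2% ± 1.0 with merged exons. It was the 1 member share that moved by more than its SD. Hk2, at under 2 CPM in most controls, has the widest errors of the members.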
